A study of Mus musculus with 6 samples.

Results

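Emcn, Robo4, Mmrn2, Clec14a, Cd93, Cd34, Podxl, Plvap, Egfl7 and Vwf, genes of the endothelial surface and of the matrix next to it, were followed in cultured aortic endothelial cells of mice infused with angiotensin II (AngII) or saline. They were taken by symbol, all 10 were among the 17067 genes of the table, and all 10 were among the 12277 that passed a filter on low counts. AngII is the hormone of the renin-angiotensin system that constricts vessels and raises blood pressure. Wild-type C57BL/6 mice received an osmotic pump under the skin at 8 weeks of age that released AngII at 1000 ng/kg/min, or saline at 0.9%, over 14 days. Aortic pieces of 2 mm from both groups were then cultured on Matrigel with 20% fetal calf serum, heparin and endothelial growth factor, and endothelial cells grew out from days 5 to 7, so the RNA came from cells that had left the animal. Each group had 3 samples, and the labels do not say whether a sample was from 1 animal or several, so a p-value here reflects how far the 3 samples of a group lay apart, and that distance may be technical only. Total counts were 22646065 to 25141992 in the AngII samples and 21154724 to 23004780 in the saline samples.

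These proteins cover the luminal face of endothelial cells or lie just outside it. Emcn (endomucin), Cd34 and Podxl (podocalyxin) are sialomucins, stalks of sialylated sugar that can repel leukocytes, or bind them through L-selectin where the sugars are suitably modified. Cd93 and Clec14a are transmembrane lectins of the same small group, and both bind Mmrn2 (multimerin 2), a matrix glycoprotein that endothelial cells secrete, in vessels that are sprouting. Robo4 is an endothelial receptor that limits leakage, Plvap builds the diaphragms of caveolae and fenestrae, Egfl7 is a secreted factor that guides the arrangement of endothelial cells, and Vwf (von Willebrand factor) is stored in Weibel-Palade bodies and tethers platelets.

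With AngII, the transcript of Mmrn2 fell while those of its receptors Cd93 and Clec14a did not pass the test. All 3 sialomucins fell, as did Robo4 and Vwf, Plvap rose, and Egfl7 did not pass. In all, 6 of the 10 genes were lower and 1 was higher by edgeR's quasi-likelihood test at an adjusted p below 0.05. Among all tested genes 28.6% were lower and 29.0% higher, so 57.6% passed in either direction, and 7 of 10 members passing is close to that share. No overlap between AngII and saline samples was seen for the same 7 genes, which held for 62.7% of all tested genes. The members' median log2 fold change was -0.35, against 9.0e-05 over all tested genes, and their summed level was 3802 to 4052 CPM (counts relative to the library total, after TMM scaling) in AngII samples and 4525 to 4576 CPM in saline samples. In bulk RNA, fewer cells of a type and less RNA per cell cannot be told apart.

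**Figure D1:**
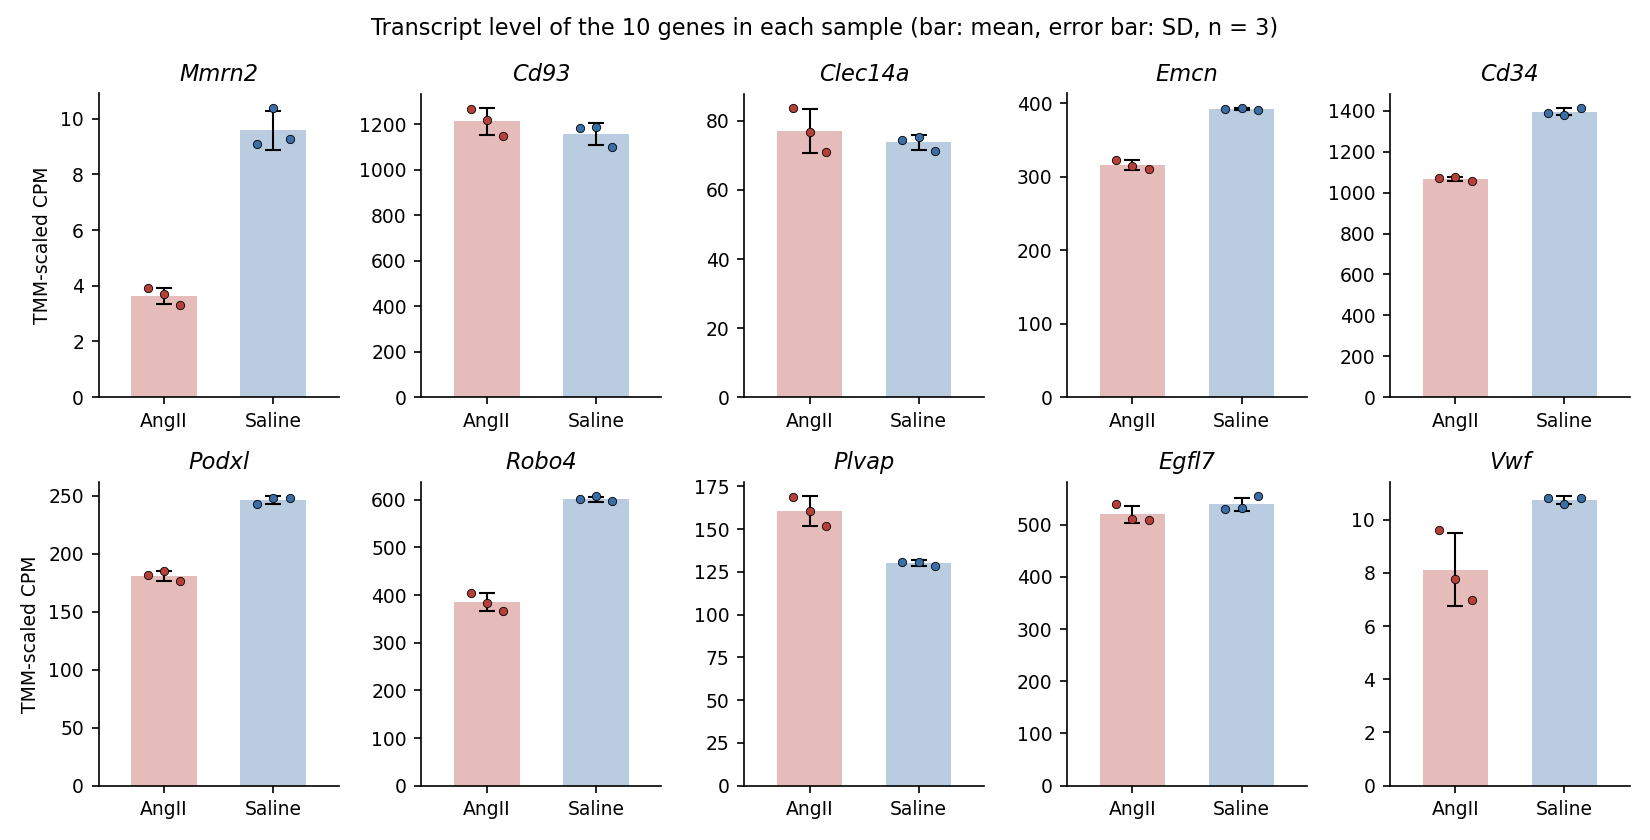
TMM-scaled CPM of each gene, with AngII samples in red on the left and saline samples in blue on the right of each panel; points are the 3 samples of a group, bars their mean and error bars the SD. Mmrn2, Emcn, Cd34, Podxl, Robo4 and Vwf are lower in all AngII samples than in any saline sample, Plvap is higher, and Cd93, Clec14a and Egfl7 overlap.

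The cells carried the transcripts that define endothelium. Pecam1 averaged 1919 ± 93.4 CPM in AngII samples and 1846 ± 19.3 CPM in saline samples (SD, n = 3 each), without passing (adjusted p = 0.195). Without AngII replicate 3, Pecam1 passed as higher (log2 fold change 0.09, adjusted p = 0.0261). Cdh5, the cadherin of endothelial junctions, rose to 1384 ± 72.6 CPM with AngII, against 1195 ± 30.3 CPM with saline (log2 fold change 0.21, adjusted p = 0.000106). Of 30 pan-endothelial genes chosen for comparison, none of them a member, 28 were tested, of which 12 were higher and 10 lower, with a median log2 fold change of 0.06 and a summed level of 7885 to 8659 CPM with AngII and 8063 to 8200 CPM with saline. The smooth muscle markers Acta2 and Tagln had at most 8 counts in any sample, and the leukocyte marker Ptprc at most 3. Of 16 listed leukocyte markers 3 were tested, 1 rose and 0 fell, and their summed level was 265 to 281 CPM with AngII and 272 to 277 CPM with saline. Most of that was Cd68, a lysosomal protein gene of macrophages, at 270.3 ± 8.48 CPM with AngII and 270.5 ± 2.05 CPM with saline. Lyz2, a macrophage lysozyme gene, rose to 3.33 ± 0.176 CPM with AngII, against 2.51 ± 0.237 CPM with saline (adjusted p = 0.0228). The Lyz2 call was lost in DESeq2 (adjusted p = 0.102) and without AngII replicate 2 (0.0773), saline replicate 1 (0.0824) or saline replicate 2 (0.0531). The summed level of the 18 listed smooth muscle and pericyte markers was 119 to 124 CPM with AngII and 109.5 to 112 CPM with saline. Smtn made up most of it (109.4 ± 2.06 CPM with AngII and 87.5 ± 0.680 CPM with saline) and rose, while the other 16 in the table summed to 11.9 to 13.6 CPM with AngII and 22.5 to 24.8 CPM with saline. Of the 8 that were tested, 1 rose and 4 fell, with Notch3 among the lower ones at 2.29 ± 0.144 CPM with AngII and 8.97 ± 0.226 CPM with saline. The part of such cells in the results was not tested.

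Sequence upstream of the start is shown for the members that fell and have an entry in the RefSeq promoter table of GRCm38.p6 (Emcn, Cd34 and Robo4), and for Clec14a, which did not pass. Each line holds the table's bases that lie before the first transcribed base of the gene in GENCODE release M21, 5′ to 3′ on the gene's own strand. Capitals mark AGGAAG or its complement CTTCCT, letters that ETS factors such as Erg can bind.
Emcn, chr3:137340828-137341066, plus strand: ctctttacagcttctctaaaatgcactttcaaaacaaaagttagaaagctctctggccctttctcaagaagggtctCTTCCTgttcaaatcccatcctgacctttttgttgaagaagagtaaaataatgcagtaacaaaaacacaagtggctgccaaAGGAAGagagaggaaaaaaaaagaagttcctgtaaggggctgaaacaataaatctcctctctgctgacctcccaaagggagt
Cd34, chr1:194938571-194938818, plus strand: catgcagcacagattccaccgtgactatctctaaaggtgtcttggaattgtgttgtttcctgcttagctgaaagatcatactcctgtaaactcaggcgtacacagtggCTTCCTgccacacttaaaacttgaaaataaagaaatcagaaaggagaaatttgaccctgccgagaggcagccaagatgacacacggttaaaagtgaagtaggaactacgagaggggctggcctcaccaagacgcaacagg
Robo4, chr9:37401722-37401896, plus strand: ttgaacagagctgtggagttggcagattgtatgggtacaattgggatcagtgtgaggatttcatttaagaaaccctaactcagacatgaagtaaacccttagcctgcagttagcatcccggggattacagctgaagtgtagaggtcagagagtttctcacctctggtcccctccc
Clec14a, chr12:58269291-58269508, minus strand: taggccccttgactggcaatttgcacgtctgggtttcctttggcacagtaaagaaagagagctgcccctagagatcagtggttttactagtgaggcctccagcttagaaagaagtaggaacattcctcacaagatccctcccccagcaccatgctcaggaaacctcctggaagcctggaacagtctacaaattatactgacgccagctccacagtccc

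The motif search covered the full windows of the table, 300 bases around each start, on both strands. The table matched 5 of the 10 members and gave 3 start sites for Egfl7, so 7 windows were searched. All 3 windows of Egfl7 lie after the first transcribed base of the gene in GENCODE. AGGAAG was found in 5 of the 7 windows, of Emcn, Cd34, Robo4 and Egfl7, and in 35.4% of all 32851 windows. The match of Robo4 lies 49 bases before the RefSeq start, past the end of the stretch printed above and so after the first transcribed base in GENCODE. The letters CCGGAA, a stronger ETS core, were in 0 of the 7 windows and in 14.9% of all windows. CACCC, bound by Kruppel-like factors, was in 4 of the 7 windows, of Robo4, Clec14a, Cd34 and Egfl7, and in 57.5% of all windows. ACAAAG, bound by SOX factors, was in 1 window, of Egfl7, and in 18.7% of all, and AGATAA, bound by GATA factors, was in 0 of the 7 and in 11.2% of all. These matches describe the letters only.

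Mmrn2 (ENSMUSG00000041445, chromosome 14, 34375465 to 34404287, plus strand, GRCm38) had the largest change of the 10 genes. Its level was 3.91, 3.69 and 3.32 CPM in AngII replicates 1 to 3, against 9.08, 10.4 and 9.28 CPM in saline replicates 1 to 3. Every AngII sample lay below every saline sample. The means were 3.64 ± 0.295 CPM and 9.58 ± 0.704 CPM (SD, n = 3 each), a 2.63-fold lower level with AngII (log2 fold change -1.40 ± 0.105, SE; adjusted p = 2.27e-09). It ranked 178 from the lowest log2 fold change among the 12277 tested genes. These values rest on 83 to 93 counts with AngII and 193 to 229 counts with saline, so Mmrn2 is a scarce transcript here. It was the only member that passed a test against a change of 1.5-fold in place of no change (adjusted p = 2.15e-06).

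Cd93 (chromosome 2, 148436640 to 148443563, minus strand), a receptor of Mmrn2 that also acts on beta 1 integrin and fibronectin deposition, was abundant in both groups. It had 1266, 1219.9 and 1149 CPM in AngII samples and 1183, 1186 and 1101 CPM in saline samples. The groups overlapped, and the log2 fold change was 0.07 ± 0.0391 (SE; 95% interval -0.015 to 0.15; adjusted p = 0.151). Clec14a (chromosome 12, 58264720 to 58269290, minus strand), the other lectin receptor of Mmrn2, had 83.7, 76.9 and 71.0 CPM in AngII samples and 74.5, 75.4 and 71.4 CPM in saline samples. These overlapped as well, with a log2 fold change of 0.07 ± 0.0485 (95% interval -0.037 to 0.17; adjusted p = 0.261). Without AngII replicate 3, the lowest AngII sample for both, Cd93 (0.10, adjusted p = 0.0183) and Clec14a (0.12, adjusted p = 0.0189) passed as higher. This raised the count of higher members to 3, in a fit where 3354 of 12380 tested genes were higher.

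The ratio of the Mmrn2 transcript to those of its receptors was also read within each sample, where library scaling has no part. Per count of Clec14a there were 0.0466, 0.0480 and 0.0468 counts of Mmrn2 in AngII samples and 0.122, 0.138 and 0.130 in saline samples. Per count of Cd93 there were 0.00308, 0.00303 and 0.00289 counts of Mmrn2 in AngII samples and 0.00768, 0.00876 and 0.00842 in saline samples. The ratios were 2.75-fold and 2.76-fold lower with AngII, and the groups did not overlap (each p = 0.10 by an exact two-sided permutation test, the smallest that 3 samples against 3 can give; adjusted p = 0.117 over 7 ratios). The ratio of the receptors to each other overlapped between the groups, with 15.1, 15.9 and 16.2 counts of Cd93 per count of Clec14a in AngII samples and 15.9, 15.7 and 15.4 in saline samples (exact permutation p = 1). The log2 difference of that ratio was 0.0042, against SDs of 0.0508 with AngII and 0.0215 with saline (n = 3 each).

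**Figure D2:**
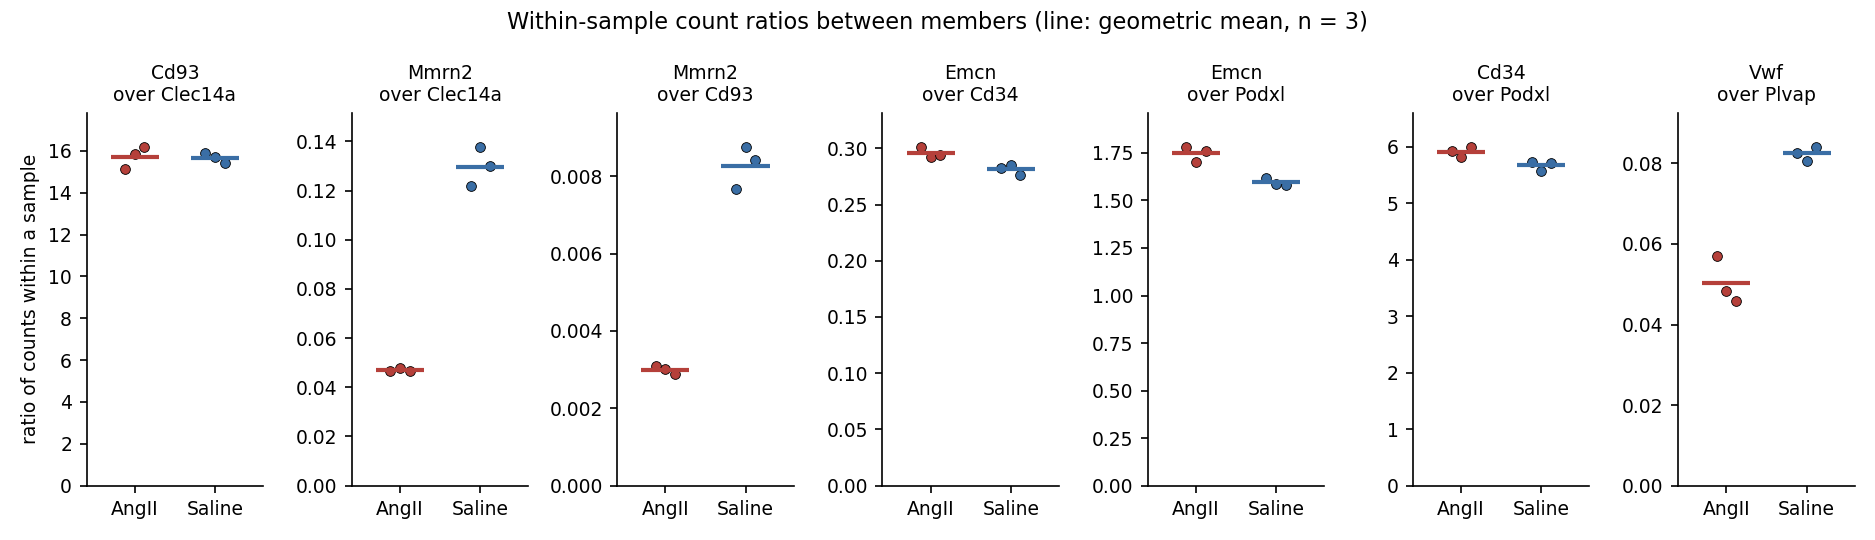
Ratio of the counts of 2 members within each sample, with AngII in red on the left and saline in blue on the right of each panel; points are samples and lines the geometric means. Mmrn2 is lower relative to both receptors in the AngII samples, at 0.0466 to 0.0480 per count of Clec14a against 0.122 to 0.138 with saline, while the ratio of Cd93 to Clec14a overlaps between the groups.

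Relatives of the complex moved less than Mmrn2 itself. Of 6 listed genes, 4 were tested, 3 fell and 0 rose (median log2 fold change -0.13). Emilin2, a matrix protein of the same family as Mmrn2, fell by 0.57 on the log2 scale, to 5.36 ± 0.633 CPM with AngII, against 7.96 ± 0.750 CPM with saline. Emilin1 changed by -0.12 (adjusted p = 0.0106), a call lost when samples were scaled to the pan-endothelial genes (adjusted p = 0.117), and its sign turned to 0.08 after adjustment of each sample for GC content and transcript length. Thbd (thrombomodulin), the neighbour of Cd93 on chromosome 2 and a lectin of the same group, fell by 0.14 (adjusted p = 0.00372), a call lost under the same scaling (adjusted p = 0.121). Cd248, the further lectin of that group, made by pericytes, had at most 20 counts in any sample, and Mmrn1 at most 1. Of 8 listed ligands and inner partners of CD93, 7 were tested, 3 rose and 1 fell (median 0.07). Msn (moesin), which links CD93 to actin, rose to 844 ± 23.2 CPM with AngII, against 640.1 ± 7.28 CPM with saline (1.32-fold). Dag1 (dystroglycan) fell by 0.25, while Igfbp7 was not analysed here.

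The 3 sialomucins fell by similar amounts. Emcn (chromosome 3, 137341067 to 137432185, plus strand) had 323, 315 and 310.5 CPM in AngII samples and 392, 394 and 391 CPM in saline samples. Cd34 (chromosome 1, 194938819 to 194961279, plus strand) had 1072, 1075 and 1057 CPM in AngII samples and 1390.3, 1382 and 1414 CPM in saline samples. Podxl (chromosome 6, 31519488 to 31563981, minus strand) had 181, 185 and 176 CPM in AngII samples and 242, 248 and 248 CPM in saline samples. For none of the 3 did the groups overlap. The levels were 1.24-fold lower for Emcn (log2 fold change -0.31 ± 0.0295, SE; adjusted p = 4.51e-08), 1.31-fold lower for Cd34 (-0.39 ± 0.0307; adjusted p = 4.47e-09) and 1.36-fold lower for Podxl (-0.44 ± 0.0310; adjusted p = 7.73e-10). An antisense gene that was not in the table, Gm16897, overlaps exons of Cd34. The libraries were stranded but whether the counting used strand is not stated, so its reads could have entered the Cd34 count.

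Within samples the sialomucins fell unequally by a small margin. The counts of Emcn per count of Cd34 were 0.301, 0.293 and 0.294 in AngII samples and 0.282, 0.285 and 0.277 in saline samples, a 1.05-fold higher ratio. Emcn per count of Podxl was 1.10-fold higher with AngII and Cd34 per count of Podxl 1.04-fold higher. In each of these the groups did not overlap, and the exact permutation p was 0.10 (adjusted p = 0.117). So Podxl fell the most of the 3 and Emcn the least in these libraries, by differences of 0.06 to 0.13 on the log2 scale, though no ratio passed. The 3 lay closer together after the GC and length adjustment, with log2 fold changes of -0.38 for Emcn, -0.40 for Cd34 and -0.42 for Podxl.

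Genes that act with the sialomucins moved both ways. The list of relatives and inner partners held 12 symbols, older names of Nherf1 and Nherf2 among them. Of these symbols 6 were tested, 1 rose and 3 fell (median log2 fold change -0.08). Podxl is tied to actin through ezrin and the NHERF adaptors, and all 3 of these transcripts fell. Ezr (ezrin) had 79.6 ± 0.699 CPM with AngII and 120 ± 4.66 CPM with saline (log2 fold change -0.59), Nherf2 had 133 ± 7.24 and 181 ± 4.14 CPM (-0.45), and Nherf1 had 54.4 ± 2.67 and 62.3 ± 0.552 CPM (-0.20; SD, n = 3 each). Msn, a close relative of ezrin and the single gene of this list that rose, has been described above. Of 23 genes that build, sialylate or sulfate mucin sugars, 16 were tested, 4 rose and 6 fell (median -0.0076). The sialyltransferase genes St3gal6 (-0.54), St3gal2 (-0.36) and St3gal1 (-0.33) fell, while St6galnac4 (0.31), a further sialyltransferase gene, C1galt1 (0.20), which forms the core of these sugars, and the branching enzyme gene Gcnt1 (0.48) rose.

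Robo4 (chromosome 9, 37401897 to 37415115, plus strand) fell more than the sialomucins. It had 404, 383 and 367 CPM in AngII samples and 601, 607 and 596 CPM in saline samples, with a wide gap between the groups. The means were 385 ± 18.6 CPM and 601 ± 5.28 CPM (SD, n = 3 each), 1.56-fold lower with AngII (log2 fold change -0.64 ± 0.0347, SE; adjusted p = 2.08e-11). Robo3, whose product guides axons, lies 553 bases beyond Robo4 on the opposite strand, so that the ends of the genes face each other. It fell by 0.98 on the log2 scale, to 26.6 ± 1.64 CPM with AngII, against 52.5 ± 3.50 CPM with saline, and whether reads ran across that gap was not tested. Of 13 listed receptors, SLIT ligands and ROBO4 partners, 10 were tested, 1 rose and 3 fell (median -0.05). The netrin receptor Unc5b, which binds Robo4, did not pass (0.13 ± 0.0890; adjusted p = 0.239), except without AngII replicate 3 (0.24, adjusted p = 0.00593) and after adjustment for GC content and length (0.28, adjusted p = 0.00721). The ligand gene Slit2 had 44.9 ± 0.758 CPM with AngII and 45.9 ± 1.11 CPM with saline (adjusted p = 0.550), and Robo1 and Robo2 had at most 2 counts in any sample. A scarce ligand gene, Slit1, was lower (-1.36, adjusted p = 0.000795), from 11 to 39 counts. Srgap3 was lower as well (-0.24), a call lost after the GC and length adjustment (adjusted p = 0.0502). Unc5c was the gene that rose (1.12), from 7 to 28 counts.

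Plvap (chromosome 8, 71497765 to 71511752, minus strand) was the member that rose. It had 169, 161 and 152 CPM in AngII samples and 131, 131 and 128 CPM in saline samples. All AngII samples were above all saline samples, the level was 1.23-fold higher, and the log2 fold change was 0.30 ± 0.0373 (SE; adjusted p = 1.42e-06). The caveola genes around it moved both ways, with 3 of 10 tested genes higher and 5 lower (median -0.09). Cav1 (caveolin 1), which shapes caveolae, had 999.5 ± 20.1 CPM with AngII and 1211 ± 4.54 CPM with saline (log2 fold change -0.28), and its partner Cav2 changed by -0.30. Cavin1 changed by -0.12, a call lost when samples were scaled to the pan-endothelial genes (adjusted p = 0.119) and, with the sign turned to 0.0033, after the GC and length adjustment (adjusted p = 0.923). Cavin3 rose by 0.22, Ehd4 by 0.14 and Pacsin2 by 0.13, the last of these not passing under the pan-endothelial scaling (adjusted p = 0.0511).

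Egfl7 (chromosome 2, 26580014 to 26593120, plus strand), whose gene also holds the microRNA Mir126a, had 539, 510.3 and 509 CPM in AngII samples and 530.4, 532 and 554 CPM in saline samples. The groups overlapped, and the log2 fold change was -0.05 ± 0.0330 (95% interval -0.12 to 0.017; adjusted p = 0.181). It passed as lower without AngII replicate 1 (-0.08, adjusted p = 0.0367), and its value was 0.04 after the GC and length adjustment. Agpat2, on the opposite strand, and Gm20532, which was not in the table, share exon sequence with Egfl7, so its count is uncertain to that extent. Of 8 listed relatives and partners 7 were tested, 4 rose and 2 fell (median 0.21). Loxl2, an enzyme that crosslinks matrix, rose to 141 ± 16.4 CPM with AngII, against 79.9 ± 3.44 CPM with saline. The integrin subunit genes of this list moved in opposite directions. Itgb3 rose by 0.69, while Itgav was lower, with a log2 fold change of -0.17 (adjusted p = 0.000144). Notch1, a receptor whose signal Egfl7 can alter, fell by 0.45, while Notch4 rose by 0.21.

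Vwf (chromosome 6, 125546774 to 125686679, plus strand), a classical marker of endothelium, was scarce in both groups. It had 9.62, 7.78 and 6.96 CPM in AngII samples and 10.8, 10.6 and 10.8 CPM in saline samples, from 174 to 229 counts with AngII and 230 to 249 counts with saline. The groups did not overlap, but AngII replicate 1 lay close to the saline samples, and the SD was 1.36 CPM with AngII and 0.140 CPM with saline. The level was 1.32-fold lower (log2 fold change -0.40 ± 0.101, SE; adjusted p = 0.00231), and it ranged from -0.55 without AngII replicate 1 to -0.30 without AngII replicate 3 (adjusted p = 0.0120) as each sample was left out. The call was lost after the GC and length adjustment (-0.21, adjusted p = 0.0667). Platelets carry Vwf RNA as well, and of 11 listed platelet markers 5 were tested, 0 rose and 3 fell (median log2 fold change -0.52). Their summed level was 252 to 255 CPM with AngII and 360 to 378 CPM with saline, most of it Selp, which endothelial cells also make. Nbeal2 (-0.83), Selp (-0.53) and Itga2b (-0.29) were the ones that fell. The call of Itga2b (adjusted p = 0.0404) was lost in DESeq2 (0.127), limma-voom (0.0515), the GC and length adjustment (0.295) and pan-endothelial scaling (0.0816). It was also lost without AngII replicate 1 (0.0795) or 2 (0.148) and without saline replicate 1 (0.143) or 3 (0.0810). Pf4 was at 0.902 ± 0.272 CPM with AngII and 0.903 ± 0.324 CPM with saline, while Ppbp had at most 1 count. The part of platelet RNA in the Vwf result was not tested.

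Other genes of the Weibel-Palade body, the storage granule that Vwf itself forms, were divided. Of 31 listed genes and Vwf partners 23 were tested, 6 rose and 9 fell (median log2 fold change -0.06). Selp (P-selectin), which shares the granule, had 237 ± 2.15 CPM with AngII and 343 ± 9.18 CPM with saline (-0.53), and Lrp1, a clearance receptor of Vwf, fell by 0.46 and Edn1 (endothelin 1), a constrictor peptide, by 0.54. F8 (coagulation factor VIII), the plasma partner of Vwf, rose to 798 ± 39.4 CPM with AngII, against 639.7 ± 24.8 CPM with saline, and Stx4a, a membrane fusion gene, rose by 0.35. Angpt2, a growth factor of the granule, rose by 0.22 (adjusted p = 1.39e-05). Per count of Plvap there were 0.0569, 0.0484 and 0.0459 counts of Vwf in AngII samples and 0.0826, 0.0807 and 0.0841 in saline samples, a 1.64-fold lower ratio (exact permutation p = 0.10; adjusted p = 0.117).

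**Figure D3:**
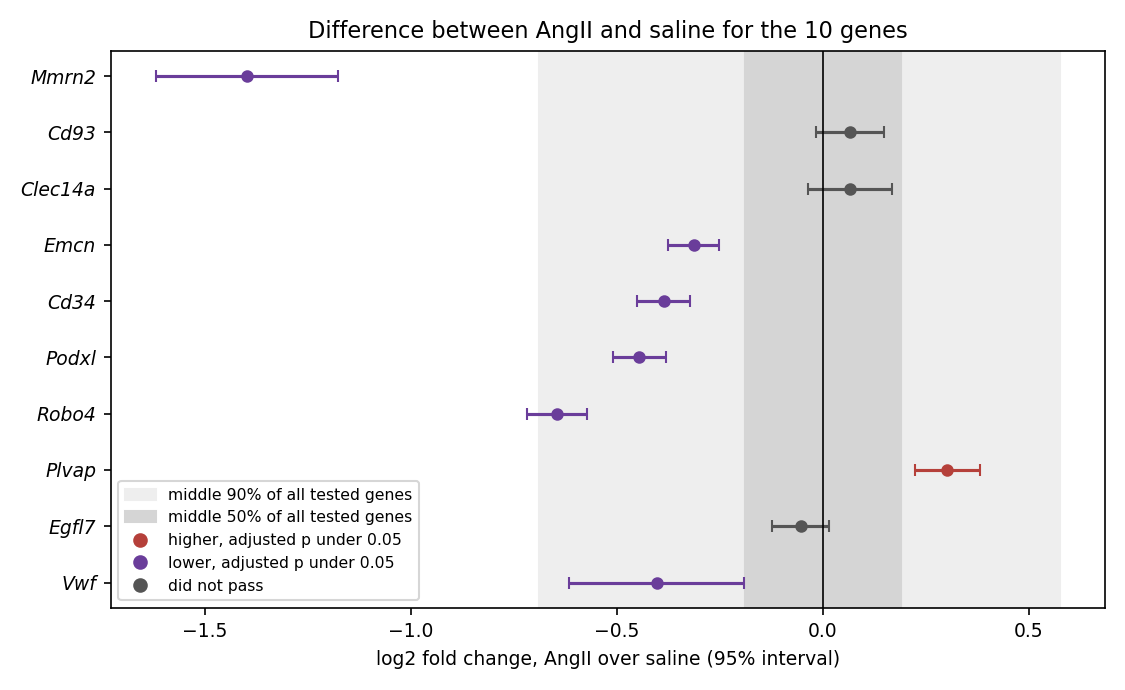
Log2 fold change of each gene, AngII over saline, with its 95% interval from edgeR; the bands span the middle 50% and the middle 90% of all 12277 tested genes. Mmrn2 at -1.40 lies outside the wider band, which runs from -0.69 to 0.58, while Cd93, Clec14a and Egfl7 lie inside the narrower band.

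**Figure D4:**
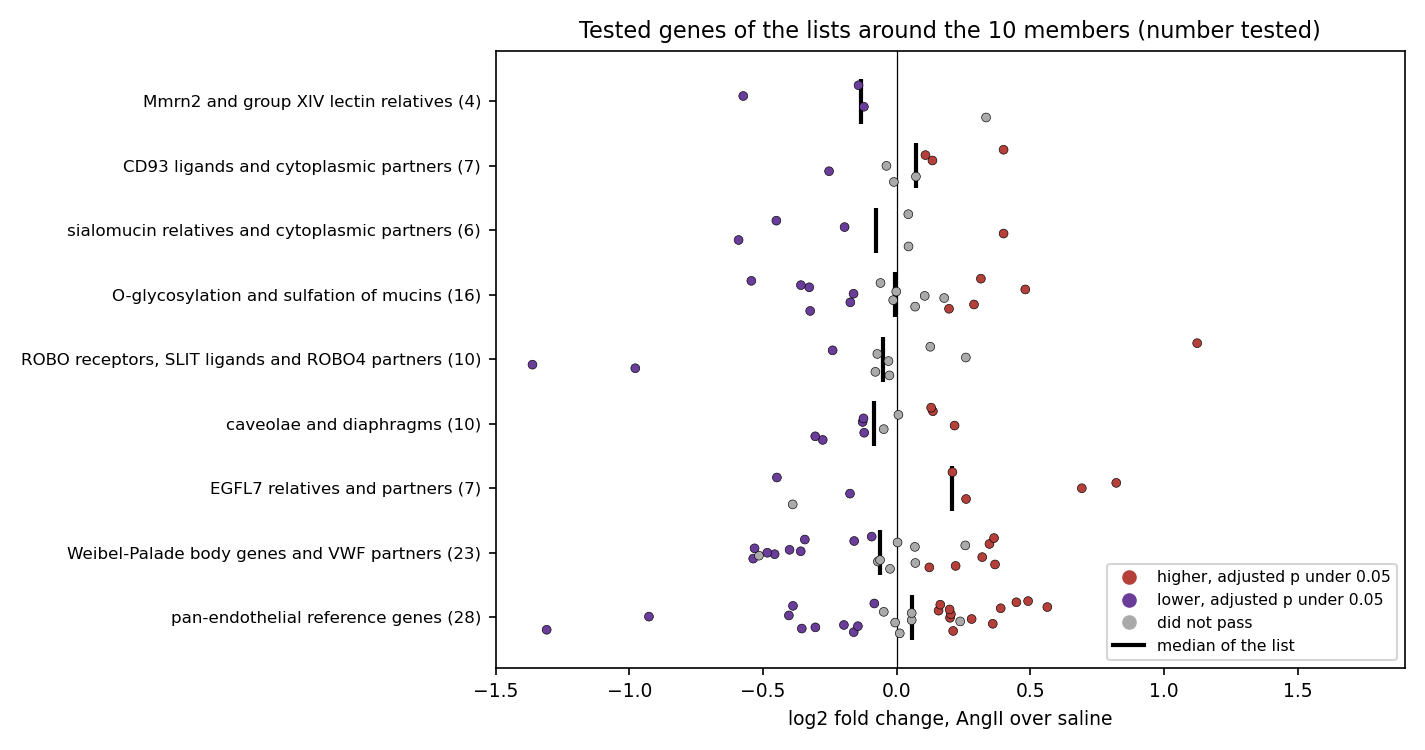
Log2 fold change, AngII over saline, of each tested gene in the lists around the members, with the number tested in brackets; red points rose, purple points fell, grey points did not pass, and black bars are list medians. List medians lie between -0.13 and 0.21, and all lists but that of the Mmrn2 relatives hold genes that rose and genes that fell.

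Levels of different genes were compared as CPM per kb of merged exons in GENCODE M21. With AngII, Cd93 led at 181 ± 8.84 CPM per kb, followed by Cd34 at 146 ± 1.33 and Egfl7 at 145 ± 4.77, which overlapped each other. Plvap was at 80.8 ± 4.32, Robo4 at 72.6 ± 3.50, Emcn at 58.4 ± 1.17, Podxl at 32.9 ± 0.791 and Clec14a at 16.9 ± 1.40 CPM per kb. Mmrn2 at 0.916 ± 0.0743 and Vwf at 0.506 ± 0.0846 CPM per kb were far below the rest (SD, n = 3 each). With saline, Cd34 led at 191 ± 2.33, ahead of Cd93 at 173 ± 7.19 and Egfl7 at 151 ± 3.68 CPM per kb, Robo4 (113 ± 0.995) and Emcn (72.6 ± 0.244) stood above Plvap (65.5 ± 0.773), and the order of the other 4 genes was the same. Except for Cd34 and Egfl7 with AngII, no neighbours in either order overlapped between samples. Per kb of the longest coding transcript, Cd34 led in both groups, at 418 CPM per kb with AngII and 546 with saline. By that length Egfl7 stood above Cd93 in both groups, at 374 against 181 CPM per kb with AngII and 388 against 173 with saline. Emcn stood above both Plvap and Robo4, and with AngII Plvap overlapped Robo4 and Vwf overlapped Mmrn2.

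**Figure D5:**
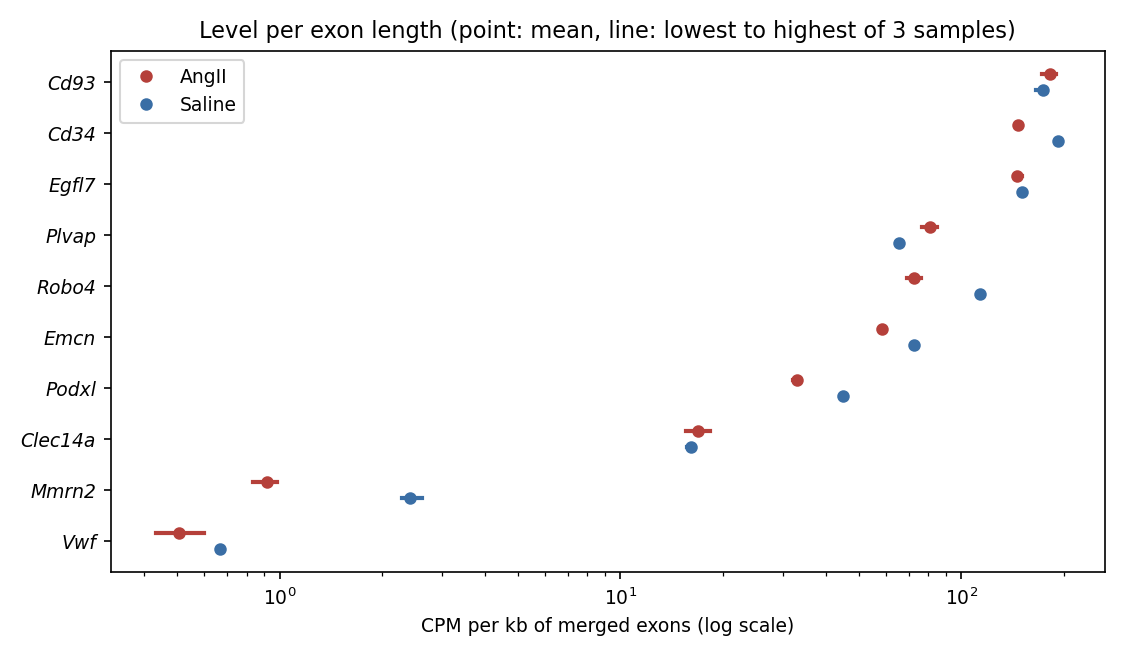
Level of each gene per kb of merged exons on a log axis, with AngII in red above saline in blue; points are means and lines run over the 3 samples. Mmrn2 and Vwf lie below 3 CPM per kb in both groups and Clec14a near 16 to 17, while Cd93, Cd34 and Egfl7 lie above 140.

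The samples of a group differed in a shared way. AngII replicate 3 was the lowest AngII sample for all 10 members and for 26 of the 28 pan-endothelial genes, against 35.2% of all tested genes. AngII replicate 1 was the highest AngII sample for 8 members and for 25 of the pan-endothelial genes, against 35.1% of all tested genes. The summed level of the pan-endothelial genes was 8659, 8304 and 7885 CPM in AngII replicates 1 to 3, and 8190, 8200 and 8063 CPM in saline replicates 1 to 3. Scaled to these 28 genes in place of TMM, the same 7 members passed in the same directions. Under this scaling 3009 of all 12277 tested genes were higher and 2617 lower. The members' log2 fold changes were then -1.39 for Mmrn2, -0.63 for Robo4, -0.43 for Podxl, -0.37 for Cd34, -0.30 for Emcn, -0.39 for Vwf and 0.31 for Plvap. Mitochondrially encoded transcripts made up 4.03% to 4.29% of counts in AngII samples and 4.48% to 4.61% in saline samples, and their part in the results was not tested.

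Among 10082 other genes with a mean of at least 5 CPM, those whose centred log2 levels over the 6 samples lay nearest to Mmrn2 were Jup (plakoglobin), a junction protein, Trim7 and Crebl2. Their log2 fold changes were -1.31, -1.27 and -1.32, at Euclidean distances of 0.137 to 0.155. Those nearest to Plvap were Arl4a, Sh3pxd2a and BC004004, with log2 fold changes of 0.32, 0.28 and 0.30 at distances of 0.0378 to 0.0414. Of 26 endothelial transcription factors listed, 21 were tested, 6 rose and 9 fell (median -0.04). Erg, an ETS factor that maintains endothelial identity, had 610 ± 14.8 CPM with AngII and 675 ± 7.29 CPM with saline (log2 fold change -0.15), and the flow-responsive factor Klf2 had 52.0 ± 1.98 and 86.0 ± 0.989 CPM (-0.73; SD, n = 3 each). Klf4 changed by -0.11 (adjusted p = 0.0217), a call lost in DESeq2 (adjusted p = 0.0823), without the count filter (0.0593), after the GC and length adjustment (0.382), with pan-endothelial scaling (0.244) and without AngII replicate 1 (0.0606) or saline replicate 1 (0.0529). Sox7 (0.56), Ets2 (0.37) and Klf6 (0.32) rose, and Tal1 (-0.39) and Stat3 (-0.32) fell.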

How the data were processed

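The authors deposited 1 table of estimated counts per gene symbol for 6 samples, not scaled to library size, and 83.0% of its values are whole. Per the labels, directional libraries of poly(A)-selected RNA were made with dUTP. Per the submitters' processing notes, HISAT2 and build mm10 were used. The quantifier, annotation, strand setting and filters are not given in the sources used here. Each column was matched to its sample by title. Counts were rounded to whole numbers. The groups were fitted in edgeR 4.0.16 (R 4.3.3) with TMM scaling, filterByExpr (minimum count 10, minimum total 15) and the quasi-likelihood F-test, with Benjamini-Hochberg adjustment over all tested genes and a threshold of 0.05. An adjusted p is from this test unless another is named, and a fold change is AngII over saline. The SE is the log2 fold change divided by the square root of F. Every replicate pair within a group exceeded counting noise (chi-square per degree of freedom 2.38 to 5.86). Coordinates and exon lengths come from GENCODE M21 on GRCm38, the assembly that mm10 names, which matched 16286 of 17067 symbols.

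All members were named, with a short set of standing genes such as Pecam1, Erg and Slit2. Further genes were taken from up to 3 rising and 3 falling genes of each list (smallest p). Not all of these are given, so a gene named here need not have the smallest p of its list. Defining markers of other cell types at or near 0, and genes such as Cd68 that hold most of a marker list's level, are named beside the results, some after their values were seen. The members and lists were chosen with earlier results of these data known. Alternatives were RLE size factors, library totals, scaling to pan-endothelial genes, other count filters, DESeq2 1.42.0, limma-voom 3.58.1, a test against 1.5-fold, the replicate block, removal of GC and length trends (loess, 97.5% of tested genes had both values) and each sample left out.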

Additional observations from a re-analysis of the deposited data

How the results depend on the processing

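Against a change of 1.5-fold in place of no change, 252 genes were higher and 356 lower over the whole table, and 0 members were higher and 1, Mmrn2, lower. Leaving out each sample gave 3159 to 3487 higher genes and 3175 to 3520 lower over the whole table. It gave 1 to 3 higher members and 6 to 7 lower, and a log2 difference in the ratio of Cd93 to Clec14a from -0.017 to 0.032. Its sign turned without AngII replicate 2, AngII replicate 3 or saline replicate 3. The 7 called members kept their direction under every alternative run, and apart from the 1.5-fold test the single call lost was that of Vwf with GC and length trends removed. Signs turned for Egfl7 (0.044), Emilin1 (0.076), Slit2 (0.0078) and Cavin1 (0.0033) with those trends removed and for Cd248 without AngII replicate 2 (-0.051 to 0.56 as each sample was left out). Over 99 named genes and 1571 gene values under alternatives, 111 calls were lost, 72 of them against 1.5-fold, and 6 were gained. Of list counts, 45 fell and 8 rose by over 1.5 times. The labels state no pairing by replicate number. Departures of same-numbered samples from their group means correlated at 0.083, 0.052 and 0.0076, and not every sample correlated best with its own number. With 3 samples per group these values cannot show whether the numbers pair the samples. With the replicate block, 3627 genes were higher and 3577 lower, and 1 member was higher and 6 lower, so the block changed no member's call. Mmrn2 and Vwf, the members with the fewest counts, are the least precise members.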

Other observations

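The cultures expressed several genes of capillary and lymphatic vessels at higher levels with AngII. Of 12 listed capillary and fenestrated markers 5 were tested, and all 5 rose, with a median log2 fold change of 1.21. Over all tested genes 29.0% rose. The smallest change of the 5 was that of Ehd4, at 0.14. Kit, a receptor kinase, had 195 ± 18.5 CPM with AngII and 84.7 ± 3.09 CPM with saline, while the capillary genes Cd36, Aplnr and Tmem100 had at most 2 counts in any sample. Of 9 lymphatic markers 5 were tested, 4 rose and 1 fell. Lyve1, a hyaluronan receptor, had 187 ± 9.72 CPM with AngII and 96.8 ± 1.39 CPM with saline (log2 fold change 0.95), whereas Prox1, the factor that sets lymphatic identity, had at most 3 counts.

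Of 16 arterial markers 8 were tested, 3 rose and 0 fell (median 0.18), and of 11 venous markers 7 were tested, 4 rose and 2 fell (median 0.13). Nr2f2, a factor of venous identity, had 80.9 ± 4.04 CPM with AngII and 59.4 ± 0.681 CPM with saline (0.45), and Ephb4, a venous receptor, had 161 ± 6.12 and 195 ± 3.69 CPM (-0.28; SD, n = 3 each). Mcam, a further adhesion glycoprotein of the endothelial surface, had 104 ± 5.30 CPM with AngII and 197 ± 1.87 CPM with saline.

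Epithelial and mesothelial markers had 3 tested genes, of which 2 fell at low levels (Krt7 at 0.391 ± 0.0438 CPM with AngII and 3.12 ± 0.586 CPM with saline). Of 5 tested fibroblast markers 4 rose and 1 fell, with a summed level of 31.3 to 35.3 CPM with AngII and 23.7 to 25.7 CPM with saline, while Col1a1, Col1a2 and Dcn had at most 6 counts. Of 8 adipocyte markers the 1 tested, Fabp4, rose, and it is also among the capillary and fenestrated markers above. The adipocyte markers Plin1, Retn and Ucp1 had at most 8 counts in any sample. Tip and sprouting markers had 11 of 15 tested genes higher and 3 lower, and mitochondrially encoded genes 1 of 13 higher and 6 lower.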
